A study of Homo sapiens with 2 samples.

Results

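Later intron peaks are peaks of RNA precipitated with CRTC2 that lay inside an intron other than the first one of the annotated transcript. They were chosen from the authors' deposited peak list by its annotation (intron number 2 or higher), a width of at most 10000 bp and a place on a main chromosome. There were 35301 of them among 175546 peaks in all (20.1%), and they made up 22.3% (95% interval 22.1 to 22.5) of the 158595 peaks that met the same limits on width and chromosome. Of 38259 intron peaks numbered 2 or higher, 2894 were left out because they were wider than 10000 bp and 64 because they lay on contigs. The study compared RNA that came down with CRTC2 with input RNA from HCCLM3, a human liver cancer line labelled wild type. It asked which transcripts CRTC2 binds, in a project on CRTC2 and YTHDF2 and the fate of m6A-modified mRNA. There was 1 library of each kind, so no value below has a replicate check. No precipitation with a control antibody was used here, so RNA bound to CRTC2 and RNA carried along in the precipitation cannot be told apart.

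An intron is transcribed as part of the pre-mRNA and cut out by the spliceosome, usually while the gene is still being transcribed, and most of it is then degraded in the nucleus. Some introns are kept in the finished transcript, and some hold smaller genes of their own, such as those of snoRNAs and miRNAs. The first intron often holds regulatory sequence and lies close to the promoter, while later introns make up most of the remaining length of long genes. CRTC2 is a coactivator of the transcription factor CREB and moves between cytoplasm and nucleus, and YTHDF2 is a cytoplasmic reader of m6A.

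The letters under 3 peaks show the sequence at summits of different depth. RefSeq promoter windows of neighbouring genes (GRCh38.p14) wholly held 15 of the later intron peaks, which gave their bases, and 3 of these peaks are shown with the summit base in capitals, on the plus strand and 5′ to 3′. They show peaks on 1, 2 and 3 RIP fragments, which made up 86.5%, 10.3% and 1.81% of the members, and they are no sample of all introns.
PLCB1 intron 3 of 31, chr20:8400055-8400085, 1 fragment: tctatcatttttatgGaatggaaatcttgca
TIMP2 intron 3 of 4, chr17:78862212-78862243, 2 fragments: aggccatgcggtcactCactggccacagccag
HECW1 intron 2 of 27, chr7:43249461-43249491, 3 fragments: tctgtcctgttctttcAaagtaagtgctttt
The PLCB1 peak was 31 bp wide, the median width of later intron peaks on 1 fragment, and the HECW1 peak had the same width on 3. The PLCB1 peak had a fold of 1.90 (0.974 to 6.24) at an input level of 0.0530. The TIMP2 peak had a fold of 2.77 (1.15 to 7.58) at 0.0845, and the HECW1 peak one of 2.83 (1.15 to 6.91) at 0.412. GC content was 29.0%, 65.6% and 35.5% in that order. None of these 3 peaks reached a q of 0.05.

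Most later intron peaks rested on a single RIP fragment. The fold is the authors' value, RIP over input at the summit with 1 added to each, and the fragments and the local input level behind it were recovered from the fold and its p. The median fold was 1.83 (quartiles 1.71 and 1.90, lowest 1.37, highest 19.4). One fragment lay at the summit of 30543 peaks, or 86.5% (86.2 to 86.9), and 3633 peaks (10.3%) had 2 fragments. The 1125 peaks with 3 or more made up 3.19%, the 284 with 5 or more 0.805% and the 82 with 10 or more 0.232%. A width of exactly 31 bp was found for 61.4% of the peaks, and 15.7% were wider than 1000 bp. The input level stood at its floor of 0.0298, the level without local input fragments, for 6.65%, and at or above that of 1 input fragment (0.634) for 3.70%.

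**Figure D1:**
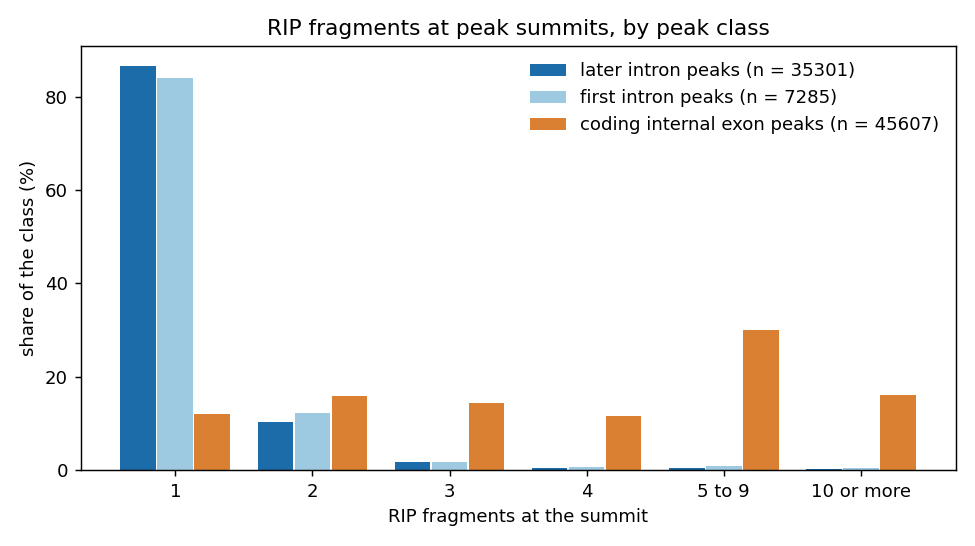
Share of each peak class (percent, vertical axis from 0) by the number of RIP fragments at the summit, for later intron, first intron and coding internal exon peaks. Single-fragment peaks make up 86.5% of later intron peaks, 84.0% of first intron peaks and 12.1% of coding internal exon peaks.

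Of the later intron peaks 95 met a q of at most 0.05, or 0.269% (0.218 to 0.329), while 1.49% of the peaks within the same limits on width and chromosome and 1.63% of all peaks met it. A fold of at least 4 was found for 52 later intron peaks (0.147%), where 1.70% of the peaks within those limits and 1.63% of all peaks had one. The share at this q was 0.508% (0.358 to 0.699) of the 7285 first intron peaks and 3.03% (2.87 to 3.19) of the 45607 coding internal exon peaks. First intron peaks resembled later ones in fold, with a median of 1.86. Of them 84.0% rested on 1 fragment, but 49.3% were 31 bp wide, 25.9% were wider than 1000 bp and 13.0% lay at the input floor. Coding internal exon summits held a median of 4 fragments at a median input level of 1.27, against 1 fragment at 0.112 in later introns, and the median exon fold was 1.98.

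Depth moved with these shares, so classes were also set side by side at equal fragment numbers. No peak of these 3 classes on 1 or 2 fragments reached q of 0.05, which left the 1125 later intron peaks on 3 or more. On 3 fragments, 9.23% (7.10 to 11.7) of 639 later intron peaks reached it, against 3.86% (3.41 to 4.35) of 6585 exon peaks and 19.5% (13.2 to 27.3) of 133 first intron peaks. The median input level of these 3-fragment peaks was 0.458, 0.634 and 0.314 in the same order. On 4 fragments the shares were 9.41% (5.76 to 14.3) in later introns, 5.43% (4.83 to 6.08) in exons and 8.16% (2.27 to 19.6) in first introns. On 5 to 9 fragments they were 6.44% (3.47 to 10.8), 4.41% (4.08 to 4.77) and 5.08% (1.06 to 14.1), and on 10 or more 4.88% (1.34 to 12.0), 3.24% (2.84 to 3.67) and 13.8% (3.89 to 31.7). The intervals of later introns and exons lay apart on 3 fragments and overlapped on 4, on 5 to 9 and on 10 or more. First introns lay above later introns on 3 fragments, with intervals apart, and their intervals overlapped on every higher number. At one fragment number the p follows from the input level alone, so the shares on 3 and on 4 fragments count peaks of low input. All 59 later intron peaks on 3 fragments that reached this q had an input level of at most 0.0727. The part of the input level in the shares on 5 to 9 and on 10 or more was not tested.

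The annotation was checked against RefSeq gene spans. The summit lay inside the span of the gene named in the intron annotation for 99.6% of later intron peaks, and in 19 peaks the stated intron number exceeded the stated total. The gene with the nearest start site, to which the deposited list also assigns each peak, was the same gene for 57.3%, so genes below are those of the intron annotation. Protein-coding genes hosted 33367 of the peaks (94.5%) and long non-coding RNA (lncRNA) genes 1460 (4.14%). Of the lncRNA-hosted peaks 76.4% rested on 1 fragment and 9 (0.616%, 0.282 to 1.17) reached q of 0.05, and of the protein-coding ones 87.0% and 86 (0.258%, 0.206 to 0.318). Few peaks overlapped the RefSeq span of a small RNA gene. A snoRNA gene was overlapped by 4 peaks, a tRNA gene by 3, an snRNA gene by 2, and a miRNA or rRNA gene by 0 of 35301, which the exact interval limits to a share of 0.0104%. The intron annotation named 3 miRNA genes for 17 peaks and an rRNA gene for 1, but none of these peaks overlapped a placed RefSeq span of that class. RefSeq places that rRNA gene on no chromosome. A RefSeq lncRNA gene was overlapped by 3039 peaks (8.61%), which includes peaks whose own host is an lncRNA gene. How many of them lay over a second gene was not counted, and the strand of a peak is not in the list.

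Median folds were slightly lower at higher intron numbers. Intron 2 held 6061 peaks (17.2%), intron 3 4688, intron 4 3380 and intron 5 3010, and 6521 (18.5%) lay in introns 11 to 20 and 2924 in introns 21 or higher. The median fold was 1.85 in introns 2 and 3, 1.81 in introns 11 to 20 and 1.80 in introns 21 or higher, at median input levels of 0.0982, 0.126 and 0.132. The share at q of 0.05 was 0.346% (0.215 to 0.529) in intron 2, 0.169% (0.0842 to 0.302) in introns 11 to 20 and 0.103% (0.0212 to 0.300) in introns 21 or higher, and these intervals overlapped. In the last intron of the transcript there were 4233 peaks (12.0%), of which 83.1% rested on 1 fragment and 0.236% (0.113 to 0.434) reached q of 0.05. Among peaks in the other later introns these shares were 87.0% and 0.274% (0.219 to 0.338). Intron lengths were not used here, so a rate per base of intron cannot be given.

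The peaks lay in 6265 genes, of which 6263 had a RefSeq symbol, 5883 were protein-coding and 257 were lncRNA genes. A gene held a median of 3. A single peak was found in 1648 genes, while the 968 genes with 10 or more held 52.0% of all later intron peaks. An exon peak was also found in 91.9% of these genes and a first intron peak in 25.8%. More later intron than exon peaks were found in 2252 genes. With exon peaks of any width and on any contig counted, 3909 genes with an exon peak had no later intron peak. Of all 20056 protein-coding genes 29.3% had a later intron peak, and of the 8829 with an exon peak 62.2%. All protein-coding genes with a later intron peak had a median length of 55.7 kb, against 14.6 kb for the other protein-coding genes.

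Gene length and peak number did not rise together throughout. The share of protein-coding genes with a later intron peak was 2.26% (1.89 to 2.68) up to 10 kb, 24.9% from 10 to 30 kb, 48.9% from 30 to 100 kb, 54.1% (52.2 to 56.1) from 100 to 300 kb and 39.1% (35.6 to 42.6) above 300 kb. Peaks per 100 kb of gene were 0.687, 3.16, 4.36, 3.14 and 0.765 in the same order. Among genes with an exon peak the rates were 2.51, 5.64, 6.82, 5.06 and 2.04, so the longest genes stayed below those of 30 to 300 kb in both sets. The promoter class takes peaks near a start site out of the intron class, and its part in the values up to 10 kb was not tested.

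**Figure D2:**
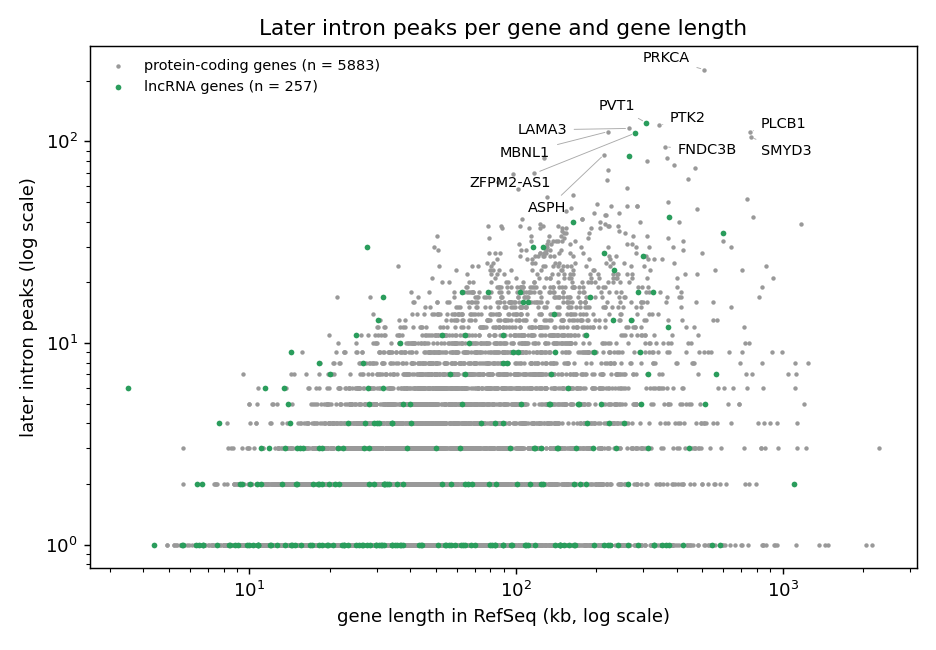
Later intron peaks per gene (vertical, log scale) against gene length in RefSeq (horizontal, kb, log scale); each point is a gene, grey for 5883 protein-coding and green for 257 lncRNA genes. PRKCA, with 227 peaks in 508 kb, lies above all others, and most of the longest genes hold few peaks.

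PRKCA, which encodes protein kinase C alpha, held the most later intron peaks. Its 227 peaks covered 8 introns and gave 44.7 per 100 kb over 508 kb, where all protein-coding genes gave 2.57. Intron 2 held 104 of them (45.8%) and intron 3 held 52. One fragment lay under 198 of the 227, and the highest PRKCA fold was 3.72 without q of 0.05. The gene had 11 exon peaks. MBNL1, a regulator of alternative splicing, held 112 at 50.4 per 100 kb, of which 76 lay in intron 4 (of the annotated 12). PTK2, the focal adhesion kinase gene, held 120 over 19 introns, and LAMA3, a laminin chain gene, 116 over 39 introns, or 43.7 per 100 kb.

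PLCB1, a phospholipase C gene, held 112 peaks, 55 of them in intron 3, at 14.9 per 100 kb. SMYD3, a lysine methyltransferase gene, held 105 at 13.9 per 100 kb, with 84 in intron 5. FNDC3B held 94 and ASPH, a hydroxylase gene of the endoplasmic reticulum, 86. ASPH had 226 fragments in its 86 peaks, where PRKCA had 260 in 227. The lncRNA gene PVT1 held 124 and the lncRNA gene ZFPM2-AS1 110, all of the latter in intron 2. Exon peaks numbered 4 in SMYD3, 6 in MBNL1, 22 in ASPH and 38 in LAMA3.

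Rates per length put shorter genes first. Among genes with at least 20 later intron peaks, the lncRNA gene TMLHE-AS1 had 108.8 per 100 kb (30 peaks in 27.6 kb). The lipoprotein receptor gene LRP8 had 73.5 (63 peaks), the gene of the transcription regulator MDFIC 70.5 (69) and ZNF124 67.5 (34). CAV1, which encodes the caveolar coat protein caveolin-1, had 66.3 (24 peaks) with no exon peak. MTCL1, a microtubule crosslinking factor gene, had 65.2 with 83 peaks. At the other end stood DIAPH2 with 2.28 (21 peaks) and VPS13B with 2.78 (24 peaks). These genes were taken from the ends of the ranking by rate, outside the naming rule.

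The highest later intron peak lay in SLBP, the gene of the protein that binds the stem-loop of histone mRNA. This peak in intron 4 of 6 (chr4:1697166-1697212, 47 bp) held 30 RIP fragments at an input level of 0.597, for a fold of 19.4 (13.3 to 27.4) and a −log10 q of 33.2. The next later intron fold was 6.12. The other 4 later intron peaks of SLBP lay in intron 2 on 1 fragment each, with folds from 1.49 to 1.68. The SLBP exon peaks, on 7 to 17 fragments, had folds from 1.53 to 1.92. The neighbouring gene FAM53A, whose start site is the one nearest to the SLBP peak, held a promoter-class peak of 29.1-fold on 29 fragments (chr4:1684264-1688026) and a first intron peak of 10.7-fold on 30 fragments (chr4:1680330-1680375). These 3 peaks thus stood close together on chromosome 4, each on 29 or 30 fragments. Transcript and strand cannot be told apart from the list.

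The other 94 peaks at q of at most 0.05 were far lower. All 95 lay in 90 genes. On exactly 3 fragments rested 59 of them, with folds between 3.73 and 3.88. Of these 59, 34 were wider than 1000 bp and 12 lay at the input floor. Another 19 had 4 fragments and 17 had 5 or more. The input level under all 59 was very low, at most 0.0727. Folds of 4 or more without q of 0.05 were found for 17 peaks, all on 4 to 6 fragments.

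Among the peaks behind SLBP, NBPF20 stood at 6.12 (3.13 to 11.1) on 9 fragments, in intron 125 of 137. It belongs to a family of near-identical copies, so the origin of its reads is uncertain. CYP4F3, a fatty acid hydroxylase gene with close paralogs, reached 5.73 (3.18 to 9.69) on 12 fragments in intron 7 of 12 (chr19:15651400-15652140). SNHG14, the long host transcript of many snoRNAs, reached 5.56 (2.43 to 11.7) on 5 fragments in intron 15 of 147, and the lncRNA gene MIR4435-2HG 5.51 (2.73 to 10.3) on 8 fragments. SENP5, a SUMO protease gene, reached 5.27 (2.31 to 11.1) on 5 fragments in intron 6 of 8. PPP4R3B, a regulatory subunit gene of protein phosphatase 4, reached 4.96 (2.27 to 9.95) and ABHD3, a phospholipase gene, 4.93 (2.16 to 10.4). Their intervals overlapped widely.

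Several of the leading peaks lay over pseudogenes or at very low input. The peaks of ZYG11B and NKAIN3, both 4.90 (2.33 to 9.44) on 7 fragments, overlapped the pseudogenes RPS13P2 and SRPK2P1. The ranking by q added CACNA1H, a T-type calcium channel gene, at 4.86 (2.03 to 10.9) on 4 fragments at the input floor, in a peak of 4166 bp that overlapped the pseudogene LOC102723999. It also added the kinase gene HIPK2 (4.81), the cofilin phosphatase gene SSH2 (4.76), GRAMD1C (4.72, over the pseudogene CTDNEP1P1) and the lncRNA gene NUTM2A-AS1 (4.64), each on 4 fragments. Genes with 2 later intron peaks at this q were PVT1, SMYD3, the histone demethylase gene KDM4B, MTCL1 and ALMS1, a gene of the centrosome, with folds from 3.78 to 3.88 on 3 fragments each.

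Peaks with many fragments lay largely over pseudogenes, many of which are copies of mature RNA inserted into the genome, often within introns of other genes. Of all later intron peaks 1042 (2.95%) overlapped a RefSeq pseudogene by at least 1 bp. These overlaps include peaks whose own host gene is a pseudogene, such as a peak in TXLNGY. A transcribed pseudogene was the host of 1.26% of all later intron peaks. How many of the 1042 lay over their own host was not counted. The share over a pseudogene was 2.33% (2.16 to 2.51) on 1 fragment, 5.01% (4.39 to 5.69) on 2 to 4, 26.2% (20.3 to 32.9) on 5 to 9 and 64.6% (53.3 to 74.9) on 10 or more. Of the 53 peaks in that last group that lay over a pseudogene, 18 lay over pseudogenes of ribosomal proteins and 6 over pseudogenes of non-coding RNAs. With 5 or more fragments 106 of 284 peaks (37.3%, 31.7 to 43.2) overlapped one of 88 different pseudogenes, and 103 of the 106 lay wholly inside it. How reads that match several places were placed is not given in the sources used here.

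Folds over and off pseudogenes differed in direction with the fragment number. The median over all later intron peaks was 1.89 over pseudogenes and 1.83 off them, and on 1 fragment 1.85 and 1.81. On 2 to 4 fragments it was 2.45 over and 2.64 off them, at input levels of 0.325 and 0.171. On 5 or more it was 2.07 and 2.54, at input levels of 3.80 and 1.90, and on 10 or more 1.86 and 2.01, at 6.34 and 5.70. A q of 0.05 was met by 10 of 1042 peaks over pseudogenes (0.960%, 0.461 to 1.76) and by 85 of 34259 off them (0.248%, 0.198 to 0.307). At like fragment numbers these shares had overlapping intervals, with 2.23% (0.729 to 5.13) over and 1.72% (1.35 to 2.15) off pseudogenes on 2 to 4 fragments, and 4.72% (1.55 to 10.7) and 6.74% (3.53 to 11.5) on 5 or more. The most fragments, 33, lay in intron 5 of 7 of SLCO5A1, an organic anion transporter family gene, at a fold of 1.95 (1.36 to 2.71) and off any pseudogene. ANKRD28 followed with 32 fragments over RN7SL4P (1.65, 1.14 to 2.31), a pseudogene of the signal recognition particle RNA. TSPAN9 had 31 over RPS27P3 (1.71, 1.18 to 2.40), HFM1 31 off any pseudogene (1.60, 1.10 to 2.25) and MED12L 30 over RNA5SP145, a 5S rRNA pseudogene (1.91, 1.31 to 2.70). SLBP, with 30 fragments and 19.4-fold, was the only later intron peak with 10 or more fragments above a fold of 6.

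**Figure D3:**
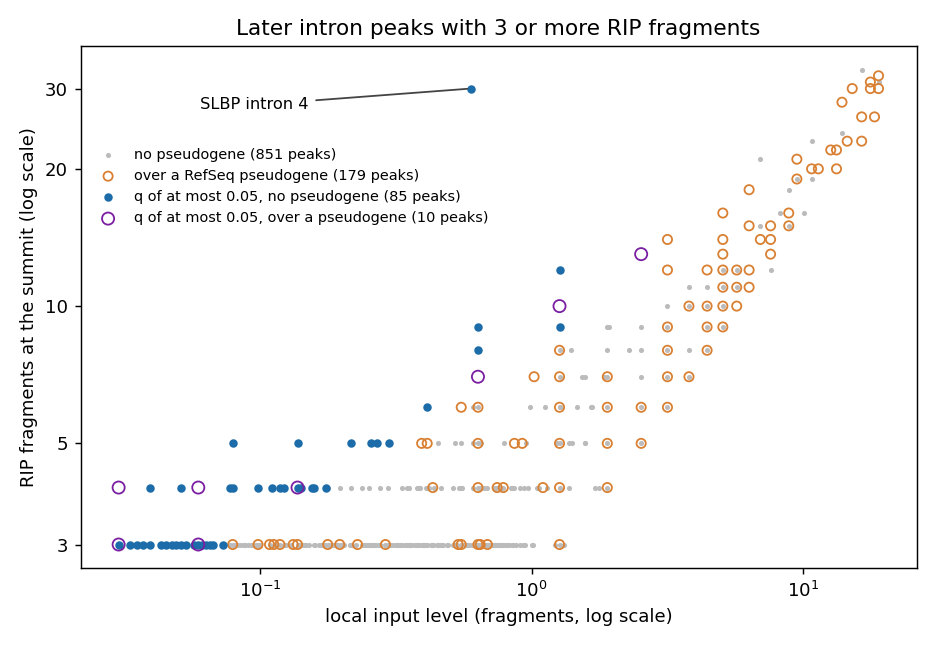
RIP fragments at the summit against the local input level (both log scale) for the 1125 later intron peaks with 3 or more fragments; peaks with equal values share a point, filled points lie off pseudogenes and open circles over them, and q of at most 0.05 is in blue or purple. SLBP intron 4 stands apart at 30 fragments and an input level of 0.597, while the other peaks with over 20 fragments lie at input levels of 6.97 or more.

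Off pseudogenes there were 178 peaks with 5 or more fragments in 117 genes. Most were scattered, with 123 of them in 106 genes that held 1 or 2, and the 11 genes with at least 3 held the other 55. HAPSTR1, a stress response regulator gene, held 9, all in its intron 3 of 3 (chr16:9103739-9111459), with 74 fragments in all, folds up to 3.53 and a median of 2.33. MET, the receptor of hepatocyte growth factor, held 8 in 5 introns (54 fragments, highest fold 3.35, median 1.97), and ASPH 8 in introns 3 and 14 (64 fragments, median 2.53). MTCL1 held 5 with a median fold of 3.45 and ZFPM2, a cofactor gene of GATA factors, 5 with a median of 1.70. PTGR1 and AOPEP held 4 each. TXNRD1, EIF3E, CSNK2A2 and KLC1 held 3 each. In CSNK2A2, a catalytic subunit gene of casein kinase 2, all lay in the last intron (11 of 11), with a median of 3.07. None of the peaks in these 11 genes with 5 or more fragments reached q of 0.05, and the genes were chosen after their values were seen.

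Later intron peaks were unevenly spread over chromosomes. Per Mb of protein-coding gene span there were 44.6 on chromosome 20, 42.2 on chromosome 17, 38.8 on chromosome 8 and 36.7 on chromosome 7, against 17.9 on chromosome 6 and 9.54 on chromosome 13 (median of 23 chromosomes 30.7). Exon peaks per Mb were 50.1, 62.9, 31.7, 35.3, 32.2 and 23.8 in the same order. Later intron peaks per exon peak were 1.22 on chromosome 8, 1.04 on chromosome 7, 0.984 on chromosome 18 and 0.907 on chromosome 3, and 0.401 on chromosome 13 and 0.458 on chromosome 14 (all 0.691). Median folds stayed between 1.79 on chromosome 19 and 1.87 on chromosome 13. With 2 or more fragments only, chromosomes 8 and 20 led with 5.69 and 5.57 per Mb, and chromosome 13 was lowest with 1.29. Peaks of lncRNA hosts are counted in the rates per Mb, while the span is that of protein-coding genes only. The part of the exon peak rate in these values was not tested.

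**Figure D4:**
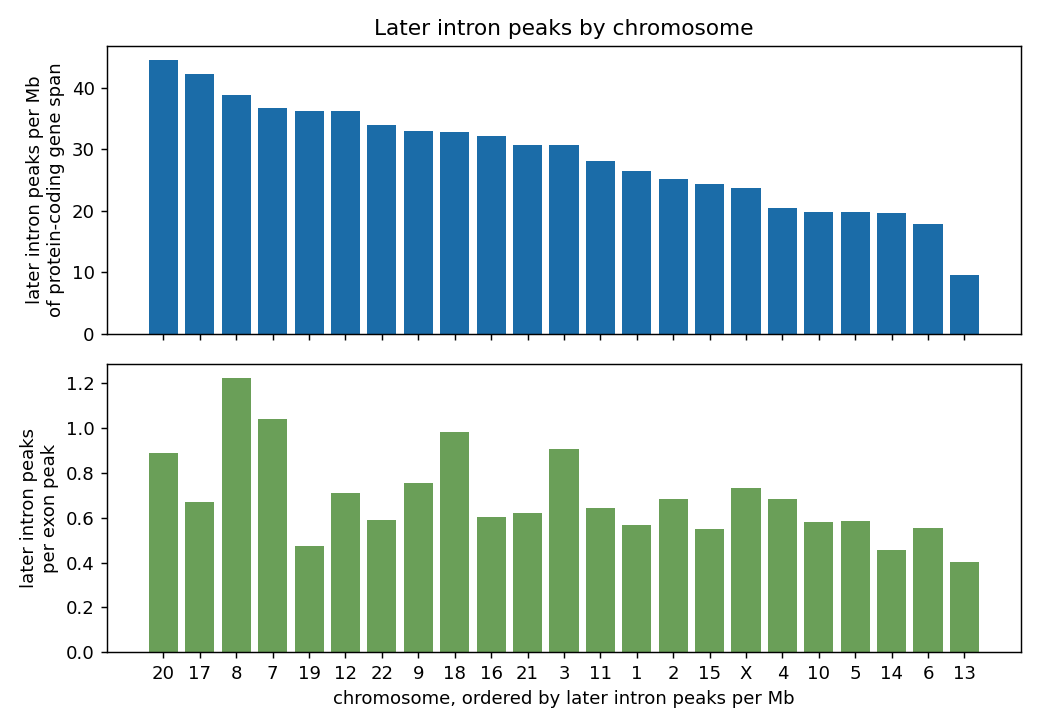
Later intron peaks per Mb of protein-coding gene span (upper bars, from 0) and per exon peak (lower bars, from 0), by chromosome in the order of the upper bars. The upper bars run from 44.6 on chromosome 20 to 9.54 on chromosome 13, and the lower bars are highest on chromosome 8 (1.22) and chromosome 7 (1.04).

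Windows of 10 Mb differed more than whole chromosomes. Of 276 windows with at least 2 Mb of protein-coding span the median was 25.8 later intron peaks per Mb (quartiles 15.7 and 35.4). The window that starts at 100 Mb on chromosome 7 had 96.9 per Mb, with 555 peaks beside 296 exon peaks. The one that starts at 20 Mb on chromosome 18 had 81.6 with 1.47 per exon peak, and the one that starts at 30 Mb on chromosome 20 had 80.6 with 1.14. The window that starts at 80 Mb on chromosome 17 had 98.8 with 0.790 per exon peak, and the highest of all, on chromosome 8, had 113.6 with 2.25. Of the 304 peaks in that chromosome 8 window, 124 lay in PVT1, an lncRNA gene that is not counted in the protein-coding span. The lowest, which starts at 20 Mb on chromosome 9, had 1.54 with 0.152 per exon peak.

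CRTC2 itself had no later intron peak. YTHDF2 had 4, all in its intron 5 of 5, on 2, 1, 1 and 1 fragments. The highest (chr1:28748858-28754341, 5484 bp wide) stood at 2.91 (1.21 to 7.99) at the input floor, and none of the 4 reached q of 0.05. Of 24 genes of CREB and CRTC signalling 19 had a later intron peak (79.2%, 57.8 to 92.9), where 29.3% of all protein-coding genes and 62.2% of those with an exon peak had one. None of these genes had one at q of 0.05, which 0.409% of all protein-coding genes and 0.838% of those with an exon peak had. The highest folds were those of the coactivator genes CRTC3 (2.84, 1.18 to 7.80) and CRTC1 (2.64, 1.09 to 7.23), the calcineurin catalytic subunit gene PPP3CA (2.83, 1.17 to 7.77) and the phosphodiesterase gene PDE3B (2.61, 1.08 to 7.14), each on 2 fragments. CREM, SIK1, PRKAR1A and PDE4D had none, as CRTC2.

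The m6A machinery, its writers, erasers and readers, had a later intron peak in 17 of 24 genes (70.8%, 48.9 to 87.4) and 0 at q of 0.05. IGF2BP3, an mRNA-binding protein gene of the m6A reader group, held 47 of their 137 peaks and the highest fold, 3.75 (1.57 to 8.43) on 4 fragments in intron 3 of 14. YTHDF2, described above, and ZC3H13, a writer complex subunit gene, followed at 2.91 each (1.21 to 7.99), and then the demethylase gene FTO at 2.89 (1.19 to 7.91), all on 2 fragments. Chromatin regulators had the highest share of the 11 lists, 35 of 40 (87.5%, 73.2 to 95.8), over 446 peaks. Only KMT2C, a histone methyltransferase gene, had one at q of 0.05, with 4.73 (2.07 to 9.98) on 5 fragments in intron 44 of 58. ASH1L (48 peaks, 3.66, 1.48 to 8.94) and SETD5 (22 peaks, 3.63, 1.52 to 8.16) followed, and KMT2B, KMT2D, SETD1A, KDM4C and DNMT3A had none. The median length of the chromatin list was 121.2 kb, that of the m6A list 39.5 kb and that of the CREB list 93.1 kb. Of protein-coding genes of 100 to 300 kb 54.1% had a later intron peak, and 83.6% of those with an exon peak. From 30 to 100 kb these shares were 48.9% and 75.6%. The interval of the chromatin list held 83.6% and lay above 54.1%. That of the CREB list held 75.6% and lay above 48.9%. That of the m6A list held 75.6%, with its lower end at 48.9%. The lists were not matched for length or limited to genes with an exon peak.

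Of 28 genes known for introns that are detained in nuclear RNA, such as the kinase gene CLK1 and many SR protein genes, 14 had a later intron peak (50.0%, 30.6 to 69.4) and 0 at q of 0.05. Their 92 peaks gave 14.8 per 100 kb, with a median fold of 1.73, and 90.2% rested on 1 fragment, beside 86.5% of all later intron peaks. The splicing regulator RBM5 (2.62, 1.09 to 7.19), TIA1 (2.54, 1.05 to 6.95), RBM39 (2.31, 0.958 to 6.34) and the O-GlcNAc transferase gene OGT (2.28, 0.945 to 6.26) were highest, each on 2 fragments. Splicing factor genes had a later intron peak in 16 of 36 cases (44.4%, 27.9 to 61.9), with MBNL1 (3.29, 1.33 to 8.03), SON (3.22, 1.30 to 7.85) and QKI (2.84, 1.18 to 7.80) among the highest and 0 at q of 0.05. Their median length was 31.5 kb. Of protein-coding genes of 30 to 100 kb 48.9% had a later intron peak, and 75.6% of those with an exon peak.

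Of 24 host genes of intronic miRNAs, whose median length was 55.5 kb, 11 had a later intron peak (45.8%, 25.6 to 67.2), where 48.9% of protein-coding genes of 30 to 100 kb had one. PTK2 had one at q of 0.05, of 3.83 (1.55 to 9.36) on 3 fragments, while AOPEP stood at 3.87 (1.69 to 8.17) on 5 fragments and LPP at 3.71 on 3 fragments without it. Of 27 snoRNA host genes, whose median length was 5.15 kb, only ZFAS1 had any (3.70%, 0.0937 to 19.0). It held 2, the higher at 2.21-fold (0.922 to 4.96) in intron 4 of 4, on 4 fragments. Of protein-coding genes up to 10 kb 2.26% had a later intron peak, and 12.6% of those with an exon peak. SNHG14, described above, was not in this list. Of protein-coding genes above 300 kb 39.1% had a later intron peak, at 0.765 per 100 kb. Of 24 genes with giant introns or fragile sites, whose median length was 1408 kb, 12 had one (50.0%, 29.1 to 70.9). Their 153 peaks gave 0.439 per 100 kb, of which SMYD3 held 105. SMYD3 also had the list's only peaks at q of 0.05 (highest fold 3.88, 1.57 to 9.48), and DIAPH2 (3.67, 1.61 to 7.75), WWOX (3.06, 1.28 to 6.88) and EXOC4 (2.68, 1.11 to 7.36) followed.

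**Figure D5:**
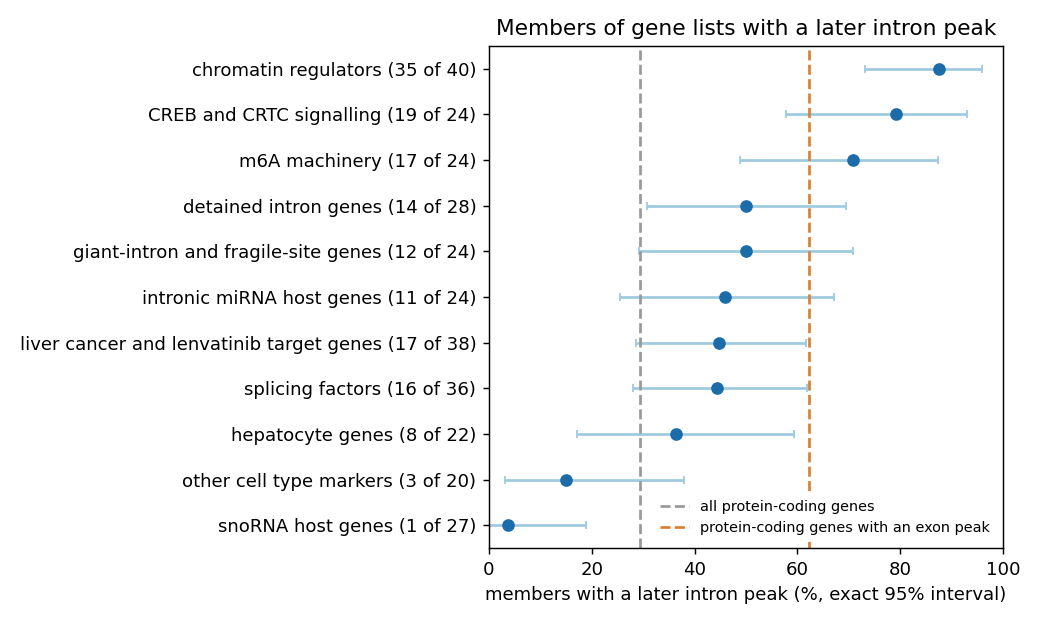
Share of the members of each gene list with a later intron peak (points, percent) with the exact Clopper-Pearson 95% interval (lines), beside the shares of all protein-coding genes (29.3%, grey) and of those with an exon peak (62.2%, orange). Chromatin regulators are highest at 87.5% and snoRNA host genes lowest at 3.70%; gene lengths differ between the lists.

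Liver cancer genes and targets of lenvatinib, a kinase inhibitor used against liver cancer, had a later intron peak in 17 of 38 cases (44.7%, 28.6 to 61.7), with 0 at q of 0.05. The highest were JAK1 (3.47, 1.41 to 8.48), the beta-catenin scaffold gene AXIN1 (18 peaks, 3.38, 1.37 to 8.26), MET (27 peaks, 3.35, 1.46 to 7.07, on 5 fragments) and ARID2 (2.91, 1.21 to 7.99). The peaks of this list rested on 1 fragment in 73.6% of cases. Hepatocyte genes had one in 8 of 22 (36.4%, 17.2 to 59.3) and 0 at q of 0.05. The coagulation factor gene F5 (2.91, 1.21 to 7.99), the transporter gene ABCC2 (16 peaks, 2.79, 1.13 to 6.82), APOH (2.65, 1.16 to 5.59) and the liver transcription factor gene HNF4A (2.43, 1.01 to 6.67) were highest. Of the hepatocyte list's 37 peaks 56.8% rested on 1 fragment. Albumin, ALB, had 4 exon peaks and no later intron peak. Markers of blood, stromal, endothelial and neuronal cells had one in 3 of 20 (15.0%, 3.21 to 37.9). These were MAP2 (1.94, 0.996 to 6.38), PECAM1 (1.92, 0.985 to 6.31) and SYT1 (1.73, 0.886 to 5.68), and all 8 peaks of these 3 genes rested on 1 fragment. The intervals of the liver cancer, hepatocyte and marker lists overlapped. Each held the 29.3% of all protein-coding genes and lay below the 62.2% of those with an exon peak. Median lengths were 67.1, 20.9 and 44.7 kb in that order. A peak at q of 0.05 was found in 0.409% of all protein-coding genes. The median over protein-coding genes of the highest later intron fold was 1.93, and the list medians ran from 1.81 in splicing factors to 2.47 in chromatin regulators.

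Just below and just above the width limit the median fold and fragment number were the same, while the small counts at q of 0.05 differed. The 297 peaks from 9000 to 10000 bp had a median fold of 1.94 on a median of 1 fragment and 2 of them reached q of 0.05. The 259 excluded peaks from 10000 to 11000 bp had the same median fold and fragment number, and 5 reached it.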

How the data were processed

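RNA precipitated with CRTC2 and input RNA of HCCLM3 cells were compared, 1 library each; recovery used a Magna RIP kit and a stranded low-input kit, per the labels' protocols. HISAT2, MACS2 and hg38 are named per the submitters' processing notes; their versions are not stated in the sources used here. The authors deposited for every peak a fold (a ratio of RIP over control, taken here as the input), a −log10 p and a −log10 q, whose headers were spoiled and which were identified by place and values. The deposited score was not analysed further. Width, summit, start site distance and annotation come from the authors, per the file headers. All q values are from the authors' deposited list.

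Summit fragments and local input levels were recovered from fold and p: the fold is fragments plus 1 over input level plus 1, and the p a Poisson tail. A whole number met both within 0.001 (in −log10 p) for 100% of peaks, and a single one for 97.5%; otherwise the closest was taken. The step was tested on 20000 peaks simulated with this same formula from recovered values, and recovered 100%. That test covers the inversion only and cannot show that the caller used this formula. The recovered fragment numbers are the depth behind each value, and library totals were not used. Folds carry exact Poisson 95% intervals of the fragments at a fixed input level, and shares exact Clopper-Pearson 95% intervals; both cover counting error only.

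With 1 library per group no test between groups was made. RefSeq (GRCh38.p14) gave symbols, gene spans, pseudogenes and promoter windows. Python 3.11.15, pandas 2.3.3, NumPy 2.4.6, SciPy 1.17.1 and matplotlib 3.10.9 were used. Members and gene lists were chosen with earlier results of these data known. Named genes were CRTC2 and YTHDF2, the 10 highest in fold at q of at most 0.05, the 10 highest in −log10 q, the 10 with most peaks, the 5 with most peaks at that q (at least 2), the 5 with most fragments, and in each list up to 4 members by fold, those at that q and, where 5 or fewer, those without a peak. Others are named as chosen after their values were seen. Not every gene that this rule picked is reported here. Alternatives changed the thresholds, the width limit, contigs, merging, gene assignment and overlap.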

Additional observations from a re-analysis of the deposited data

How the results depend on the processing

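No paired analysis was possible because each group had 1 library, which also left none to leave out. Requiring q of at most 0.05, a fold of at least 4, at least 2 fragments or at least 5 fragments turned the 35301 later intron peaks into 95, 52, 4758 or 284, and the 6265 genes into 90, 51, 2352 or 201. In the same order the share of peaks (22.3%) became 4.02%, 1.92%, 5.27% or 0.696%, and the median fold (1.83) 3.88, 4.49, 2.62 or 2.26. The share at q of 0.05 (0.269%) became 67.3% at a fold of at least 4, 1.997% with 2 and 5.99% with 5 fragments. These limits select higher peaks by construction. A width of at most 1000 bp gave a share of 20.5%, a median fold of 1.80 and 0.192% at q. Merging peaks of an intron within 1000 bp gave 21.2%, 1.84 and 0.385%. Without a width limit the share was 21.9%, the median fold 1.84 and the share at q 0.327%. Without peaks over pseudogenes, an alternative added after the data were seen, the share was 21.7%. The median over genes of their highest fold was 1.93. Including contigs, and assigning the nearest gene, changed no count by over 1.5 times. Pseudogene overlaps (1042) numbered 862 with at least 50% of the peak covered, and 891 with the summit inside, also added afterwards. Depth limits most members: a fold on 1 fragment has an interval that includes 1, and folds of such peaks have no order beyond their input level.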
